A study of Homo sapiens with 59 samples.

Results

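The genes of the DNA replication machinery were followed in Jurkat, a line of human leukaemic T cells kept in culture, with the supply of 1 essential amino acid at a time reduced. The set held 41 genes, picked by name for their role at the replication origin or fork, out of 34622 genes listed in at least 1 of 7 deposited tables and 24174 listed in every table. All 41 were listed and tested in each table. The labels give total RNA as the starting material and day 3 as the time point for all 59 libraries. The restricted groups are labelled 25% of the amino acid concerned: tryptophan, methionine, histidine, phenylalanine, leucine, valine or isoleucine, with 5 libraries each. Histidine, methionine, phenylalanine and tryptophan each had a control group of 5 libraries, and 4 libraries of a branched-chain amino acid (BCAA) control served isoleucine, leucine and valine together. The labels name no further treatment, and the BCAA control libraries carry the numbers 1, 3, 4 and 5. Whether the libraries of a group stem from separate cultures is not stated, and the p-values below therefore cover the scatter of these libraries alone, which could be technical.

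Replication starts in steps that are separated in the cell cycle. The origin recognition complex (ORC) binds DNA, and CDC6 and CDT1 then load the MCM2 to MCM7 helicase ring onto it, while geminin (GMNN) blocks CDT1 once S phase has begun. The loaded ring is activated by CDC45, the GINS complex and MCM10. Polymerase alpha with primase lays down primers, the clamp loader RFC places the sliding clamp PCNA, and polymerases delta and epsilon extend the strands. FEN1 and LIG1 join the lagging-strand fragments, and RPA coats single-stranded DNA. Many of these genes are transcribed towards S phase under E2F transcription factors, and cultured leukaemia cells such as Jurkat cycle continuously. In bulk samples, fewer cells in S phase and less mRNA per cell cannot be told apart.

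Promoter sequence was examined because the members fell together in the methionine and tryptophan comparisons and because E2F sites are the textbook feature of this gene class. Sequences come from RefSeq on GRCh38.p14, and 35 of the 41 genes were found in that promoter table. In the 250 bases before the start site, an E2F element was searched on both strands as TTTCCCGC, TTTCGCGC, TTTGCCGC or TTTGGCGC. It was found in 12 of the 35 members (34.3%) and in 761 of 27305 promoters of the same length (2.79%). Those 27305 were all promoters available, not matched to the members for base composition or type of gene. How far such differences account for the gap was not tested. The 12 were MCM3, MCM6, MCM7, ORC3, CDT1, GINS2, POLA1, POLA2, POLE, PCNA, RFC3 and LIG1. In the windows below, printed 5′ to 3′ on the strand of the gene, capitals mark the element. The MCM6 window is chr2:135876482-135876635 on the minus strand and has 2 places at which a match on 1 strand overlaps a match on the other, giving 4 matches. The POLA1 window is chrX:24693741-24693828 on the plus strand, and the PCNA window is chr20:5126634-5126721 on the minus strand, before the first of the PCNA starts listed.
MCM6: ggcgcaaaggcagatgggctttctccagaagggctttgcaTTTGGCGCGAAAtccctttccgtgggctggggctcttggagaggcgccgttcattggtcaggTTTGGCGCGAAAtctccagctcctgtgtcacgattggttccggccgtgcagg
POLA1: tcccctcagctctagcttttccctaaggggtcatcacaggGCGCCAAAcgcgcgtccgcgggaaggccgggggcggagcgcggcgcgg
PCNA: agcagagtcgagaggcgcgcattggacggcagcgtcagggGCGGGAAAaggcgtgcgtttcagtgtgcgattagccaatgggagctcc

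In the same RefSeq annotation of GRCh38.p14, MCM2 spans chr3:127598411-127622436, MCM10 chr10:13161558-13211110, CDT1 chr16:88803789-88809258 and CDC6 chr17:40287879-40304657, all on the plus strand. ORC1 (chr1:52372829-52409503) and PCNA (chr20:5114953-5126622) lie on the minus strand and POLA2 (chr11:65261962-65305985) on the plus strand, and the values below are for whole genes. CCAAT and a cell-cycle element were searched in the same windows on both strands, against the same unmatched promoters. CCAAT, the NF-Y box, was present in 20 of 35 members (57.1%) and in 33.0% of all promoters. The cell-cycle homology element TTTGAA or TTCGAA, better known from mitotic genes, was present in 1 of 35 members (2.86%) and in 14.6% of all promoters. Members with and without the E2F element both fell: of the 12 with it, 10 were lower under methionine restriction and 12 under tryptophan restriction, and of the 23 without it, 20 and 21 were. Their median log2 fold changes were -1.18 and -1.25 with the element and -0.90 and -1.10 without it. ORC1, CDC6 and MCM10, which are among the members that fell most under tryptophan restriction, held none of the E2F letters in the window, which says nothing about whether E2F factors bind there.

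The share of each library's total that the 41 genes held gives the scale of the response without any scaling between libraries. Under methionine restriction the share was 0.287% ± 0.0030 (SD, n = 5) against 0.559% ± 0.0075 (n = 5) in the methionine control. Under tryptophan restriction it was 0.395% ± 0.0081 (n = 5) against 0.739% ± 0.0066 (n = 5). The restricted libraries lay below every control library in both cases. The histidine groups overlapped, at 0.522% ± 0.0034 and 0.546% ± 0.032 in the control, and so did the phenylalanine groups, at 0.313% ± 0.0074 and 0.332% ± 0.015. The phenylalanine overlap rests on control 1 (0.309%): the other 4 controls, at 0.333% to 0.350%, lay above all 5 restricted libraries, at 0.304% to 0.324%. In the leucine table all 5 restricted libraries, at 0.387% to 0.418%, lay above the 4 control libraries, at 0.337% to 0.348%. The valine libraries, at 0.358% to 0.368%, also lay above them, while the isoleucine libraries, at 0.333% to 0.373%, spread across them. The control groups differed among themselves, from a mean of 0.332% (phenylalanine) to 0.739% (tryptophan). Each response below is therefore relative to its own control, and why the controls differed was not tested.

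**Figure D1:**
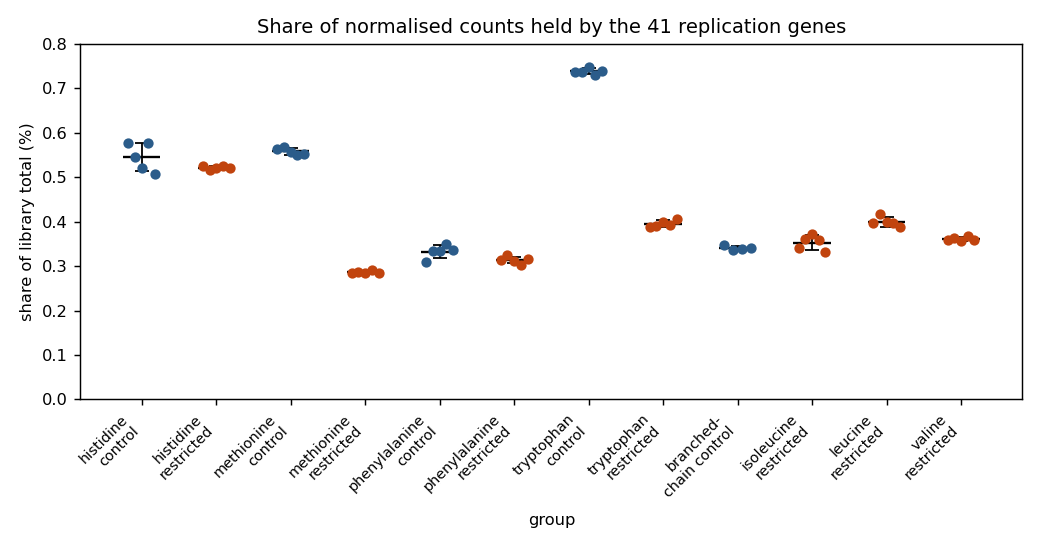
Share of each library's total normalised counts (%, y axis) held by the 41 replication genes, by group (x axis); points are libraries, black lines are means and bars are 1 SD. Methionine restriction (0.287%) and tryptophan restriction (0.395%) stand well below their own controls (0.559% and 0.739%), leucine restriction (0.400%) and valine restriction (0.361%) stand above the branched-chain control (0.341%), and the histidine, phenylalanine and isoleucine groups overlap theirs.

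Before the results, 4 libraries need naming because they stand apart in ribosomal protein mRNA: BCAA control 1 (1.06 log2 units above its group in the isoleucine table), phenylalanine restricted 2 (0.96), phenylalanine control 1 (0.71) and valine restricted 2 (0.51). BCAA control 1 also stood 0.22 to 0.25 log2 units above its group over the 41 genes. Histidine control 5 stood 0.41 above its group, and the other 4 histidine controls stood at -0.066 to -0.141. The highest such value in the methionine and tryptophan groups was 0.30, in methionine control 5. Library totals ran from 14949600 to 20539300 normalised counts. CD3E, a chain of the T cell receptor complex, was present in every group, at means of 11191 to 17965.5, though 1 marker does not settle cell identity. CD79A, a B cell receptor chain, was present at means of 222 to 739, and it was higher under methionine restriction (log2 fold change 1.72) and tryptophan restriction (0.64). Of the markers of other lineages, 3 or 4 passed the filter on low values in each table. KRT18, an epithelial keratin, was higher for methionine (0.82) and COL1A1, a collagen, for tryptophan (0.72). Of 12 T cell markers, 4 were lower and 1 higher for methionine and 3 lower and 4 higher for tryptophan, where 25.4% and 27.8% of all genes were lower and higher for methionine and 27.7% and 23.6% for tryptophan. For histidine 4 T cell markers were lower and 2 higher, KRT18 was lower (-1.10) and CD79A higher (0.38), where 12.3% of all genes were lower and 15.6% higher. The part of these markers in the results below was not tested.

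Values below are normalised counts, the counts after the authors' scaling between libraries of a table. A gene was called when its Benjamini-Hochberg adjusted p from limma, taken over all genes of its table, lay below 0.05. Fold changes were computed after adding 1 to each value and taking log2. Levels in different tables were scaled separately. When every library was instead given the same total, the median of all tested genes moved up by 0.13 (methionine), 0.12 (phenylalanine), 0.25 (tryptophan) and 0.11 (valine) log2 units. The share of called genes that were higher then rose from 52.2% to 62.6%, from 40.3% to 67.0%, from 45.9% to 70.9% and from 41.1% to 63.7%. Among the replication genes, 35 were still lower and 4 higher under methionine restriction on that scale, and 38 lower and 2 higher under tryptophan restriction. Over all tested genes on that scale, 20.6% were lower and 34.6% higher for methionine, and 16.9% lower and 41.2% higher for tryptophan.

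Methionine restriction lowered 36 of the 41 replication genes and raised 4, with a median log2 fold change of -0.93. Over all 16889 genes tested in that table, 25.4% were lower and 27.8% higher, with a median of 0.02. Tryptophan restriction lowered 39 of 41 and raised none, with a median of -1.10, where 27.7% of all tested genes were lower and 23.6% higher with a median of 0.03. The restricted libraries lay wholly below the controls for 35 members under methionine (19% of all genes) and for 38 under tryptophan (21.9%). At least 2-fold lower were 20 members under methionine and 24 under tryptophan, against 10.4% and 4.40% of all tested genes.

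**Figure D2:**
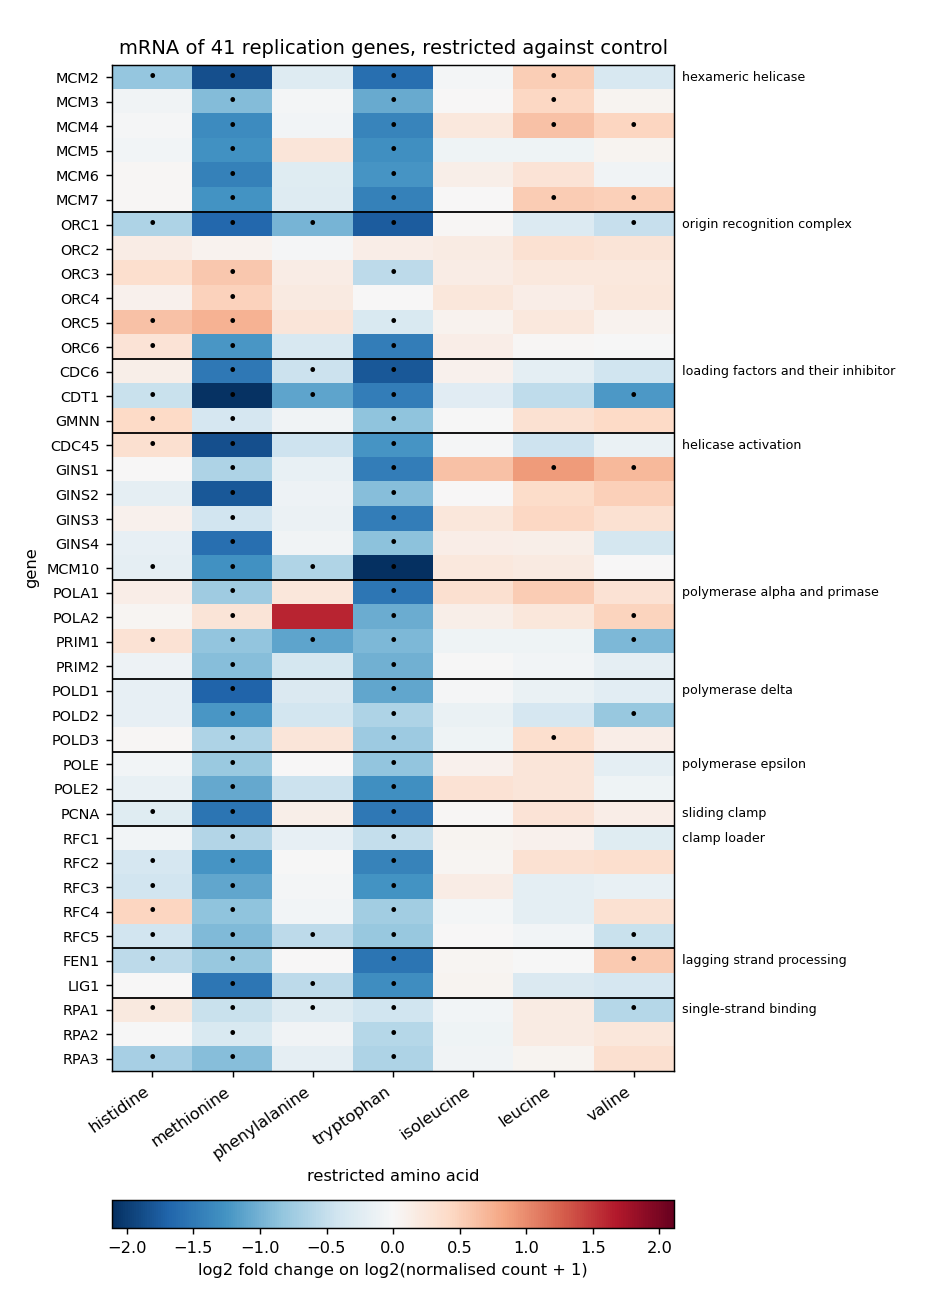
Log2 fold change (colour, restricted minus control) of the 41 genes (rows, grouped by role) in the 7 comparisons (columns); a dot marks an adjusted p below 0.05. The methionine and tryptophan columns are blue through nearly all roles except part of the origin recognition complex, and the isoleucine column holds no dot; the dark red POLA2 cell for phenylalanine (1.60, not called) rests on 1 control library listed at 0.

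All 6 subunits of the helicase ring fell in both comparisons, with log2 fold changes of -0.92 to -1.85 under methionine and -1.06 to -1.58 under tryptophan restriction. MCM2 read 6168, 7056, 6479, 6632 and 6115 in the methionine controls and 1851, 1735, 1802, 1880 and 1719 in the restricted libraries. The 2 groups were far apart, a 3.61-fold lower level (log2 -1.85, SE 0.06, adjusted p = 3.04e-11). In the tryptophan table MCM2 read 10132, 11450, 11187, 10304 and 11153 in the controls and 3617, 3321, 3689, 3863 and 3615 under restriction. That was 2.99-fold lower (log2 -1.58, SE 0.06, adjusted p = 1.05e-10), again with no overlap. The other ring subunits were lower to similar degrees within each table: MCM4 2.5-fold and 2.64-fold, MCM5 2.42-fold and 2.45-fold, MCM6 2.69-fold and 2.36-fold, and MCM7 2.40-fold and 2.69-fold under methionine and tryptophan respectively. MCM3 changed least, 1.89-fold and 2.09-fold. The exons of MCM2 share 22.7% of their bases with an antisense gene, so its counts are uncertain where the counting did not use strand, which no source used here states.

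The origin recognition complex, which marks origins, split by subunit. ORC1, the subunit whose level cycles, and ORC6 fell in both comparisons. ORC1 read 846, 1034, 940, 895 and 898 in the methionine controls and 282, 310, 264, 320 and 292 under restriction. The groups did not overlap, and the level was 3.13-fold lower (adjusted p = 4.47e-09). Under tryptophan restriction ORC1 was 374 ± 37.2 (SD, n = 5) against 1265 ± 67.1 (n = 5), 3.38-fold lower (adjusted p = 6.21e-10). ORC6 was 2.33-fold and 2.73-fold lower.

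ORC4, a core subunit of the same complex, went the other way under methionine restriction. Its values were 579, 564, 594, 501 and 580 in the controls and 792, 712, 760, 815 and 877 in the restricted libraries. All restricted libraries lay above all controls (log2 0.49, SE 0.08, adjusted p = 0.000193). In the tryptophan table ORC4 read 1000, 834, 823, 939 and 780 in controls and 744, 916, 902, 876 and 987 under restriction, so the groups overlapped (log2 0.02, SE 0.09, adjusted p = 0.898). ORC3 and ORC5, 2 further core subunits named because they complete the 4 genes that rose, were 1.49-fold and 1.66-fold higher under methionine restriction (adjusted p = 0.000122 and 1.45e-05). Under tryptophan restriction both were lower, by 1.47-fold and 1.25-fold (adjusted p = 0.000275 and 0.0275). ORC2 was not called in any of the 7 comparisons, and its log2 fold changes in these 2 were 0.07 (SE 0.08) and 0.14 (SE 0.08).

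The loading factors were among the genes that fell most. CDT1, which brings the helicase ring to the origin, read 4549, 5849, 5062, 5745 and 5605 in the methionine controls and 1186, 1402, 1181, 1384 and 1146 under restriction. It showed the largest methionine change of the set, 4.25-fold lower (log2 -2.09, SE 0.09, adjusted p = 4.24e-10). CDT1 values in the tryptophan table were 3653, 4634, 4626, 3822 and 4542 in controls and 1612, 1425, 1675, 1786 and 1287 under restriction, 2.74-fold lower (adjusted p = 2.13e-08). CDC6, the ATPase that works with CDT1, was 2.83-fold lower under methionine restriction (571 ± 58.5 against 1618 ± 152, SD, n = 5 each, adjusted p = 1.47e-08). For tryptophan, CDC6 read 3307, 2806, 2957, 2959 and 2644 in controls and 745, 873, 916, 791 and 908 under restriction. All 5 restricted libraries stood below 917, a 3.47-fold lower level (adjusted p = 3.99e-10). GMNN, the inhibitor of CDT1, moved less. It read 1092, 851, 964, 777 and 1124 in methionine controls and 733, 793, 624, 822 and 748 under restriction. The groups overlapped at 777 to 822, and the fall was 1.28-fold (adjusted p = 0.0141; 0.0782 with equal library totals). The GMNN fall under tryptophan restriction was 1.80-fold, from 1500 ± 106 to 834 ± 67.7 (SD, n = 5 each, adjusted p = 3.54e-07).

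The helicase activators all fell in both comparisons, but not in the same order. CDC45 read 1211, 964, 1056, 825 and 1043 in the methionine controls and 312, 287, 248, 300 and 250 under restriction. The level was 3.63-fold lower without overlap (adjusted p = 1.18e-08). For GINS2, the controls read 1324, 1118, 1242, 1014 and 1280 and the restricted libraries 369, 320, 297, 356 and 385, 3.45-fold lower (adjusted p = 7.04e-09). The tryptophan falls of the same 2 genes were 2.38-fold for CDC45 and 1.86-fold for GINS2 (adjusted p = 3.00e-08 and 2.85e-08). MCM10, which bridges the helicase and polymerase alpha, had the largest tryptophan change of the set. Its controls read 3446, 3635, 3501, 3652 and 3394 and its restricted libraries 740, 867, 812, 797 and 874. That was 4.31-fold lower (log2 -2.11, SE 0.06, adjusted p = 1.99e-11), and the methionine fall of MCM10 was 2.42-fold (adjusted p = 1.63e-08).

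**Figure D3:**
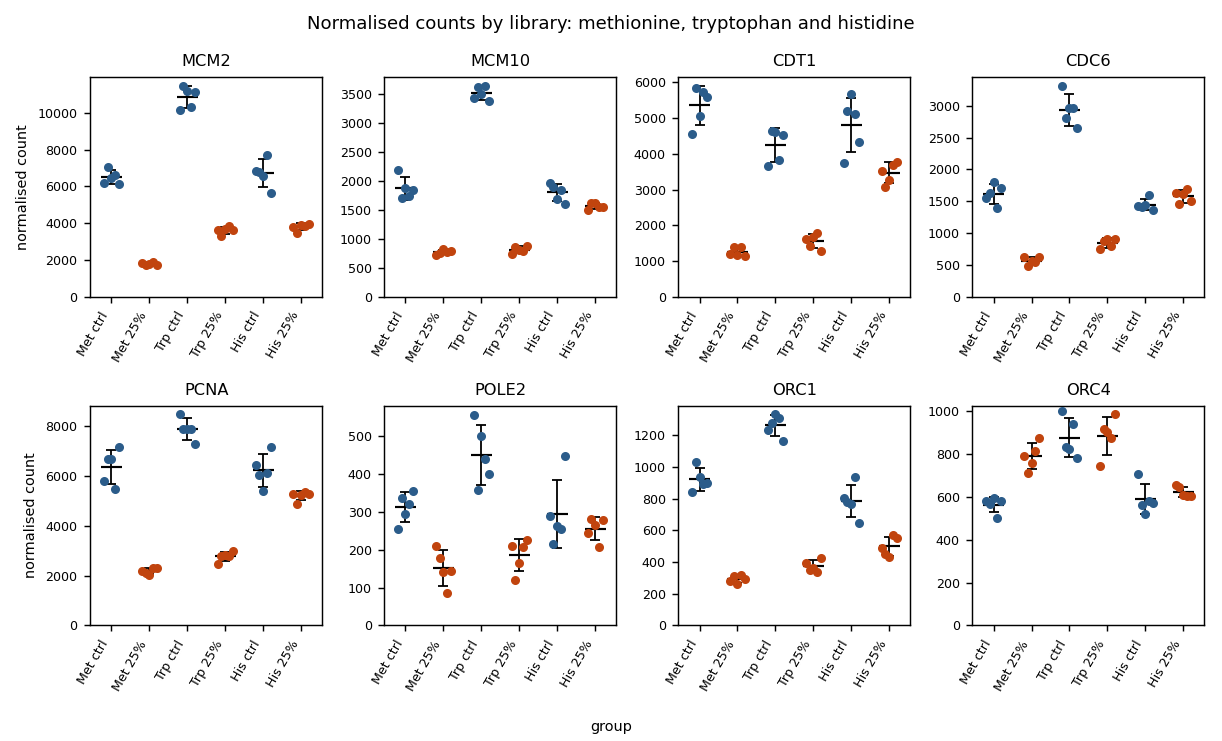
Normalised counts (y axis, from 0) of 8 replication genes in every control (blue, ctrl) and restricted (orange, 25%) library of the methionine (Met), tryptophan (Trp) and histidine (His) tables; lines are means and bars 1 SD. MCM2, MCM10, CDT1, CDC6, PCNA, POLE2 and ORC1 separate completely for methionine and tryptophan, whereas ORC4 is higher under methionine restriction and overlaps for tryptophan.

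At the primer and elongation stage, polymerase delta, polymerase epsilon and primase genes fell in both comparisons. POLD1, the catalytic subunit of polymerase delta, read 3946, 3696, 3624, 3923 and 3539 in the methionine controls and 1082, 1182, 1171, 1181 and 1178 under restriction. All restricted libraries lay far below the controls, 3.23-fold lower (adjusted p = 7.70e-11). Tryptophan restriction lowered POLD1 2.15-fold, from 3616 ± 449 to 1681 ± 174 (SD, n = 5 each, adjusted p = 2.06e-07). POLE2, an accessory subunit of polymerase epsilon, read 254, 336, 294, 321 and 355 in methionine controls and 210, 179, 142, 85.1 and 145 under restriction. Its restricted libraries were widely spread but stayed below the controls, 2.12-fold lower (SE 0.20 on log2, adjusted p = 0.000457), and 2.45-fold lower under tryptophan restriction (adjusted p = 1.76e-05).

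POLA2, the accessory subunit of polymerase alpha, was the exception among the polymerase genes. It read 328, 367, 395, 343 and 399 in the methionine controls and 450, 429, 409, 489 and 443 under restriction. All restricted libraries were above all controls by a small margin, 1.21-fold higher (log2 0.28, SE 0.09, adjusted p = 0.0212; without methionine restricted 4, 0.0581). Under tryptophan restriction POLA2 read 607, 651, 732, 548 and 692 against 1534, 1351, 1314, 1292 and 1172, 2.06-fold lower (adjusted p = 3.00e-07). Its exons share 35.1% of their bases with another gene model on the same strand, so its counts are uncertain. POLA1, the catalytic subunit of the same enzyme, was 1.68-fold lower for methionine and 2.86-fold lower for tryptophan, and the primase gene PRIM2 1.87-fold and 2.02-fold.

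PCNA, the clamp that tethers the polymerases, read 5782, 6658, 6659, 5473 and 7161 in methionine controls and 2168, 2118, 2013, 2294 and 2312 under restriction. The groups did not overlap, and the fall was 2.90-fold (adjusted p = 3.23e-09). The tryptophan fall of PCNA was close to it, 2.84-fold, from 7876 ± 435 to 2777 ± 186 (SD, n = 5 each, adjusted p = 2.83e-10). All 5 clamp loader genes fell in both comparisons, by log2 -0.62 to -1.24 for methionine and -0.51 to -1.41 for tryptophan. RFC3 read 1503, 1408, 1420, 1411 and 1470 in methionine controls and 696, 622, 700, 678 and 675 under restriction, 2.14-fold lower with little spread in either group (adjusted p = 1.15e-08). Its tryptophan fall was 2.38-fold (adjusted p = 9.06e-09). PCNA, RFC3, RFC5, POLD2, FEN1 and RPA2 have named pseudogenes, and pseudoaligned counts may be divided among such copies.

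LIG1, the ligase that seals lagging-strand nicks, read 1675, 2484, 2136, 2436 and 2323 in methionine controls and 810, 841, 618, 873 and 693 under restriction. The fall was 2.88-fold (adjusted p = 1.54e-07), and the tryptophan fall was 2.49-fold, from 2555 ± 165 to 1026 ± 29.2 (SD, n = 5 each, adjusted p = 5.92e-10). The flap nuclease gene FEN1 had a log2 fold change of -0.80 (SE 0.10) for methionine and -1.54 (SE 0.06) for tryptophan. The RPA genes for single-strand binding had medians of -0.47 and -0.60, and all 3 fell in both comparisons. RPA3, the smallest RPA subunit, read 777, 906, 999, 712 and 933 in methionine controls and 453, 449, 419, 491 and 507 under restriction, 1.85-fold lower (adjusted p = 5.79e-06). In the tryptophan table RPA3 was 1.58-fold lower (adjusted p = 6.36e-05).

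The methionine and tryptophan responses were compared directly by the difference of their log2 fold changes. Of the 41 genes 19 differed, 12 being higher in the methionine response and 7 lower, where 53.6% of all genes tested differed (28.6% higher, 25% lower). The members thus differed no more often than genes at large, and the differences named here are results of single genes. POLA2 differed by 1.32 (SE 0.12, adjusted p = 8.18e-09), ORC3 by 1.13 (SE 0.13, adjusted p = 2.89e-07) and ORC5 by 1.05 (SE 0.15, adjusted p = 2.59e-06); all 3 rose under methionine and fell under tryptophan restriction.

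Within the GINS complex, which joins CDC45 on the helicase, the subunits differed in opposite directions. GINS1 and GINS3 fell more under tryptophan restriction (differences of 0.79, SE 0.15, and 1.05, SE 0.14). GINS2 and GINS4 fell more under methionine restriction (differences of -0.89, SE 0.11, and -0.73, SE 0.15). The adjusted p of these 4 differences lay between 6.22e-07 and 0.000253. The exons of GINS3 and GINS4 share 10.9% and 21.2% of their bases with antisense genes. MCM10 fell more under tryptophan restriction (0.84, SE 0.09, adjusted p = 1.26e-07), whereas CDT1 and CDC45 fell more under methionine restriction (-0.64, SE 0.14, and -0.61, SE 0.14, adjusted p = 0.000421 and 0.000933). PCNA showed a difference of -0.03 (SE 0.10, adjusted p = 0.819) and ORC1 of 0.11 (SE 0.11, adjusted p = 0.424).

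**Figure D4:**
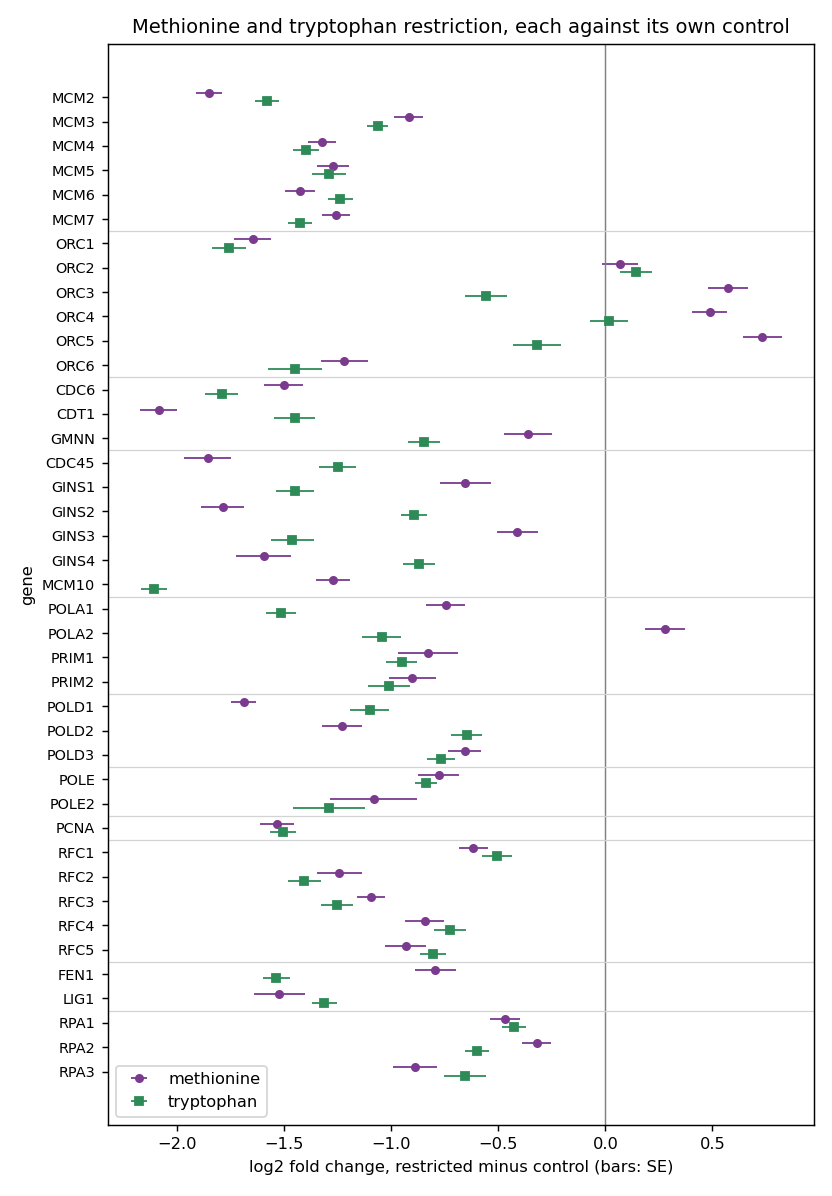
Log2 fold change (x axis, restricted minus control, bars are SE) of each replication gene (y axis, grouped by role) for methionine (circles) and tryptophan (squares). Most pairs lie between -0.5 and -2, and POLA2, ORC3 and ORC5 lie on opposite sides of 0.

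Histidine restriction moved fewer members and moved them both ways: 10 were lower and 7 higher, where 12.3% of all tested genes were lower and 15.6% higher. The lower members were 24.4% of the set, and the higher members were 17.1%, near the share over all genes. The member median was -0.03, and it was 0.015 with trimmed mean of M values factors. The restricted libraries lay wholly below the controls for 7 members (8.2% of all genes) and wholly above for 6 (12%). Lower were MCM2, RPA3, ORC1, FEN1, CDT1, RFC3, RFC5, RFC2, PCNA and MCM10, and higher were ORC5, RFC4, GMNN, CDC45, PRIM1, ORC6 and RPA1. The calls of MCM10, RPA1, RFC2, ORC6 and PRIM1 were lost in 13, 11, 6, 3 and 1 of 18 alternatives, in that order. Without histidine control 5, 12 members were lower and 7 higher (11.9% and 15.7% of all genes), with POLD1 among those gained and RPA1 lost. MCM2 had the largest change, with controls of 6861, 6810, 6575, 7728 and 5642 and restricted libraries of 3823, 3478, 3912, 3857 and 3985. No library overlapped, and the level was 1.76-fold lower (log2 -0.81, SE 0.08, adjusted p = 6.58e-06). The other 5 ring subunits were not called, with log2 fold changes of -0.08 to 0.03.

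Among the licensing genes, ORC1 read 806, 778, 768, 936 and 647 in histidine controls and 492, 451, 433, 572 and 551 under restriction, 1.57-fold lower (adjusted p = 0.000608). CDT1 read 3759, 5199, 5664, 5116 and 4326 in controls and 3508, 3075, 3283, 3696 and 3781 under restriction. Control 1 lay below restricted library 5, and the fall was 1.38-fold (adjusted p = 0.00462). GMNN read 926, 833, 879, 827 and 1020 in controls and 1154, 1324, 1233, 1177 and 1124 under restriction. All restricted libraries were above the controls, 1.34-fold higher (adjusted p = 0.00124), so that CDT1 and GMNN moved in opposite directions. CDC45 was also above, 1263 ± 74.0 against 996 ± 102 (SD, n = 5 each), 1.27-fold (adjusted p = 0.00593).

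The clamp loader also split. RFC4 was 1.37-fold higher (2327 ± 126 against 1704 ± 133, SD, n = 5 each, adjusted p = 0.000327). RFC2, RFC3 and RFC5 were lower by 1.28-fold, 1.32-fold and 1.32-fold, and RFC1 had a log2 fold change of -0.06 (SE 0.06). RFC3 read 1159, 1275, 1031, 1168 and 1339 in controls and 798, 852, 887, 1010 and 958 under restriction, with no overlap (adjusted p = 0.00388). RPA3 was 1.62-fold lower, at 964, 847, 773, 790 and 982 in controls and 529, 538, 483, 555 and 576 under restriction (adjusted p = 7.86e-05). CDC6, GINS2, POLD1, POLA2, POLE2, LIG1 and ORC4 were not called, with log2 fold changes between -0.19 and 0.12.

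The histidine response was set against the others by the same test of the difference. It differed from the methionine response for 35 members (34 higher with histidine, 1 lower), where 34.4% of all genes differed, 18.6% higher and 15.8% lower, and from the tryptophan response for 38, all higher with histidine (43.3% of all genes differed, 25.7% higher and 17.5% lower). CDC45 differed most from methionine, by 2.20 (SE 0.14, adjusted p = 9.30e-11). ORC4 was the 1 member lower in the histidine response, by -0.40 (SE 0.11, adjusted p = 0.00940). From the phenylalanine response it differed for 11 members, 9 higher and 2 lower with histidine (9.66% of all genes differed, 6.34% higher and 3.32% lower), led by PRIM1 at 1.41 (SE 0.16, adjusted p = 8.41e-06).

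Phenylalanine restriction lowered 8 members and raised none, where 6.09% of all tested genes were lower and 4.11% higher; the member median was -0.13 (-0.012 with equal library totals). The restricted libraries lay wholly below the controls for 9 members (6.1% of all genes) and wholly above for none (5.55%). The 8 were CDT1, PRIM1, ORC1, MCM10, LIG1, RFC5, CDC6 and RPA1. CDT1 read 3007, 2934, 2770, 3660 and 2825 in controls and 1395, 1569, 1277, 1367 and 1362 under restriction. All 5 restricted libraries lay below 1570, 2.17-fold lower (log2 -1.12, SE 0.10, adjusted p = 3.03e-05). PRIM1, the catalytic subunit of primase, was 2.16-fold lower (298 ± 35.5 against 649 ± 109, SD, n = 5 each, adjusted p = 0.000417). PRIM1 exons share 14.9% of their bases with a gene model on the same strand.

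ORC1 read 515, 594, 498, 650 and 550 in phenylalanine controls and 282, 274, 307, 284 and 271 under restriction, 1.97-fold lower (adjusted p = 0.000161). MCM10 read 749, 1063, 844, 878 and 818 in controls and 561, 468, 652, 586 and 541 under restriction, 1.55-fold lower (adjusted p = 0.00651). CDC6 read 850, 963, 1032, 944 and 1048 against 684, 673, 754, 725 and 678, 1.37-fold lower (adjusted p = 0.00800). For all 3 the groups did not overlap. LIG1 was 1.46-fold lower (1300 ± 178 to 885 ± 76.9, SD, n = 5 each, adjusted p = 0.0103). The RPA1 call (1.21-fold lower, adjusted p = 0.0352) was lost in many alternatives, and the calls of CDC6 and LIG1 were lost with the replicate number as a block (adjusted p = 0.0566 and 0.0560).

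Of the genes followed in every comparison, MCM2, ORC4, GMNN, CDC45, GINS2, PCNA, RFC3, POLD1, POLE2 and RPA3 were not called, with log2 fold changes from -0.46 (POLE2, SE 0.21) to 0.19 (ORC4, SE 0.11). Several phenylalanine values turned on the 2 libraries that stood apart. POLA2 was listed at 0 in control 1 and at 352, 324, 394 and 396 in the other controls, and 13 genes were listed at 0 in that library while at least 100 in every other library of the table. The restricted POLA2 values were 347, 369, 353, 305 and 334, overlapping the other controls, and the fitted log2 fold change of 1.60 (SE 1.39, adjusted p = 0.515) rests on that 0. PCNA read 4134, 2946, 2805, 3088 and 2943 in controls and 3363, 4230, 3166, 3250 and 3197 under restriction, with control 1 and restricted library 2 at the top of their groups. Without these 2 libraries 16 members were lower and none higher, the 8 named above and MCM2, MCM6, MCM7, ORC6, CDC45, POLD1, POLD2 and RFC1, with log2 fold changes between -0.18 and -0.49 for these added 8. Over all genes the shares in that fit rose as well, to 14.2% lower and 12.2% higher. Without restricted library 2 alone 14 were lower (8.69% of all genes), and without control 1 alone 11 were (8.51%).

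The methionine response differed from the phenylalanine response for 30 members (28 lower with methionine, 2 higher), where 29.4% of all genes differed, 14.3% lower and 15.1% higher. In turn, the phenylalanine response was higher than the tryptophan response for 31 and lower for none (32.6% of all genes differed, 18.2% higher and 14.3% lower). These are differences of responses, not of levels. By share of the library total, the tryptophan-restricted libraries (mean 0.395%) all stood above the phenylalanine controls (mean 0.332%). GINS2 showed a difference of -1.67 (SE 0.17, adjusted p = 3.48e-07) between methionine and phenylalanine. PRIM1 was not among the 30: its log2 fold changes were -0.83 (SE 0.14) and -1.11 (SE 0.14).

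Isoleucine, leucine and valine restriction were each compared with the same 4 BCAA control libraries, so their results share those libraries and are given side by side. Under isoleucine restriction no member was called, as no gene of the table was (0% of 16623 genes in limma); 4 members and 872 genes (5.25%) had an unadjusted p below 0.05. The smallest adjusted p of a member was 0.797 and the median log2 fold change 0.04. GINS1, a GINS subunit, was the 1 member whose isoleucine libraries (406, 461, 495, 470 and 370) lay wholly above the controls (293, 284, 317 and 256), as 1.19% of all genes did, and none lay wholly below (0.818%). MCM2 read 2909, 3227, 3392, 3651 and 2849 against 3970, 2910, 3156 and 3232 in controls 1, 3, 4 and 5, and the groups overlapped. CDT1 read 2627, 3152, 3259, 2943 and 2681 against 5353, 3438, 2425 and 3146, with control 1 far above every other library. The log2 fold changes of the 16 genes followed in every comparison ran from -0.24 (CDT1, SE 0.18) to 0.31 (POLE2, SE 0.21).

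Leucine restriction raised 6 members and lowered none, where 3.41% of all genes were higher and 4.33% lower; the member median was 0.17. The leucine libraries lay wholly above the controls for 12 members (6.32% of all genes) and wholly below for 2 (6.81%). Of the 6 called, 4 were helicase ring subunits (MCM2, MCM3, MCM4 and MCM7), and the others were GINS1 and POLD3, an accessory subunit of polymerase delta. MCM4 had the smallest adjusted p: restricted libraries read 2440, 2798, 2652, 2592 and 2664 and controls 1667, 1648, 1698 and 1869. All leucine libraries were above all controls, 1.53-fold higher (log2 0.61, SE 0.09, adjusted p = 0.00149). MCM2 read 4086, 5130, 4370, 4564 and 4543 against 3793, 2769, 3015 and 3106, also without overlap (log2 0.52, SE 0.11, adjusted p = 0.0145). GINS1 was 1.87-fold higher (553 ± 116, n = 5, against 291 ± 24.8, n = 4, SD, adjusted p = 0.00690). MCM5 and MCM6 had log2 fold changes of -0.08 (SE 0.13) and 0.29 (SE 0.09) and were not called.

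Leaving out BCAA control 1, 12 genes were higher under leucine restriction, the 6 above and MCM6, GMNN, GINS2, GINS3, PCNA and RPA2, where 5.2% of all genes were higher in that fit. Without leucine restricted 4, 3 were (0.982% of all genes). GMNN shows the effect of that control: leucine libraries read 755, 767, 707, 726 and 606, controls 3, 4 and 5 read 496, 527 and 532, and control 1 read 755. The log2 fold change was 0.32 (SE 0.14, adjusted p = 0.169) with control 1 and 0.45 (SE 0.10, adjusted p = 0.0162) without it. The calls of MCM4 and GINS1 held in every alternative run. Those of POLD3, MCM3, MCM7 and MCM2 were lost in 11, 5, 4 and 1 of 17 alternatives, in that order. CDC45 went the other way: its leucine libraries (550, 563, 462, 429 and 490) all lay below the controls (851, 598, 654 and 624), but the fall missed the threshold (log2 -0.44, SE 0.13, adjusted p = 0.0608). CDT1, ORC1, ORC4, CDC6, MCM10, RFC3, POLA2, POLD1, POLE2, LIG1 and RPA3 were not called either, with log2 fold changes from -0.54 (CDT1) to 0.25 (POLE2).

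Valine restriction lowered 6 members and raised 5, where 7.36% of all genes were lower and 5.13% higher; the member median was 0.06. The valine libraries lay wholly below the controls for 8 members (9.13% of all genes) and wholly above for 3 (6.28%). Lower were CDT1, PRIM1, POLD2, RPA1, ORC1 and RFC5, and higher were GINS1, FEN1, MCM7, POLA2 and MCM4. CDT1 read 1388, 1652, 1395, 1581 and 1613 against 5516, 3448, 2461 and 3217 in the controls. All 5 valine libraries lay below the lowest control, 2.30-fold lower (log2 -1.20, SE 0.19, adjusted p = 0.00162). PRIM1 was 1.93-fold lower, at 284, 277, 390, 432 and 431 against 869, 539, 668 and 711 (adjusted p = 0.00697). POLD2 and RPA1 were 1.74-fold and 1.52-fold lower (adjusted p = 0.0122 and 0.00577).

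MCM4 in the valine table read 2429, 2153, 2611, 2586 and 2890 against 1812, 1751, 1818 and 2004, 1.37-fold higher without overlap (adjusted p = 0.0232). MCM7 was 1.41-fold higher (9946 ± 495, n = 5, against 7098 ± 1247, n = 4, SD, adjusted p = 0.0224). MCM2, in the same ring, read 2732, 2704, 2442, 2870 and 2576 against 4088, 2916, 3201 and 3302. Every valine library was below every control, but the fall did not pass the threshold (log2 -0.33, SE 0.12, adjusted p = 0.0916). MCM10, ORC4, CDC6, GMNN, CDC45, GINS2, PCNA, RFC3, POLD1, POLE2, LIG1 and RPA3 were not called for valine, with log2 fold changes from -0.42 (CDC6) to 0.50 (GINS2). The calls of CDT1, PRIM1, POLD2 and RPA1 held in every alternative, while the 5 rises did not: leaving out single libraries gave 0 to 8, with 0 without BCAA control 3 or BCAA control 4, 1 to 2 without valine restricted 1, 3, 4 or 5 or BCAA control 5, and 8 without BCAA control 1. Over all genes, 2.37% to 8.38% were higher when single libraries were left out. Without both BCAA control 1 and valine restricted 2, 10 members were lower and 14 higher, including all 11 called over all libraries, where 11.5% of all genes were lower and 13.5% higher in that fit.

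**Figure D5:**
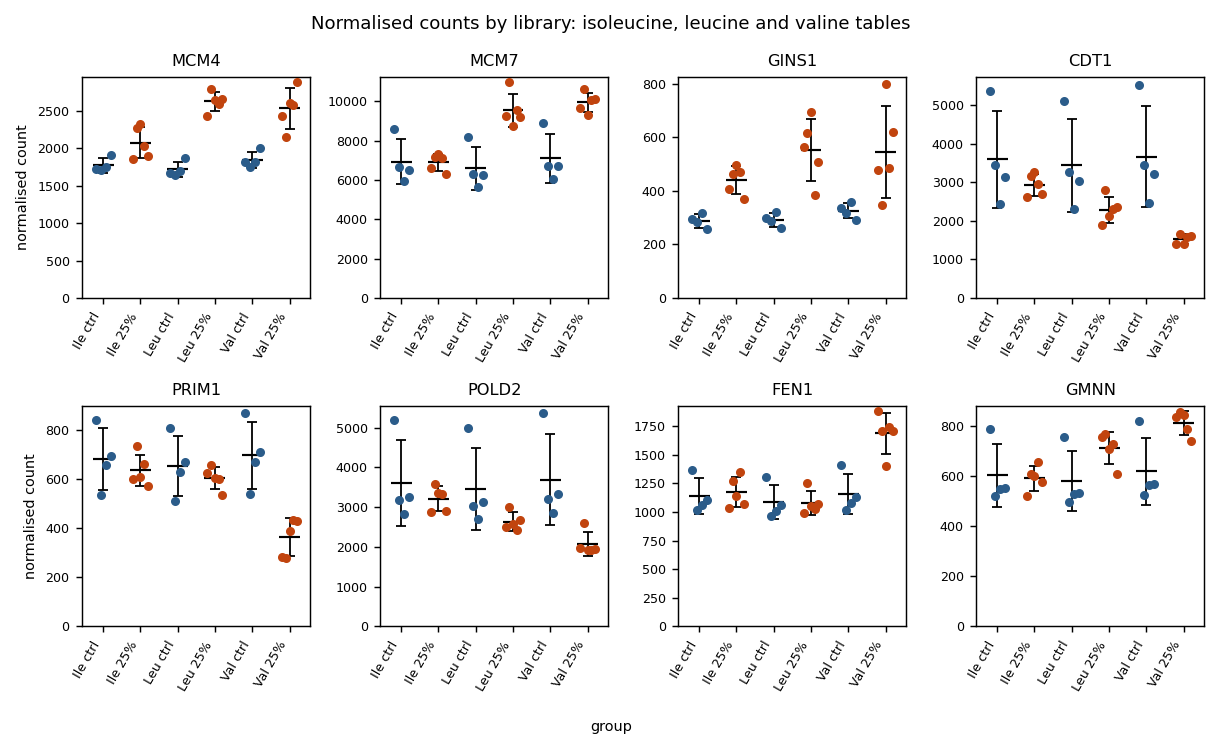
Normalised counts (y axis, from 0) of 8 replication genes in the isoleucine (Ile), leucine (Leu) and valine (Val) tables for the 4 shared control libraries (blue, ctrl) and the 5 restricted libraries (orange, 25%); lines are means and bars 1 SD. MCM4 is higher in the leucine and valine libraries and CDT1 lowest in the valine libraries. The same library (BCAA control 1) is the highest of the 4 controls for CDT1, POLD2 and GMNN.

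Across the 7 comparisons, ORC1, CDT1 and RFC5 were lower in 5, and MCM10, PRIM1 and RPA1 in 4. Among these calls, ORC1 for valine was lost in 11 of 18 alternatives, RFC5 for valine in 3 of 18, MCM10 for histidine in 13 of 18 and RPA1 for phenylalanine in 13 of 19. CDT1 had log2 fold changes of -0.46, -2.09, -1.12 and -1.45 for histidine, methionine, phenylalanine and tryptophan, each against its own control, and of -0.24, -0.54 and -1.20 for isoleucine, leucine and valine against the shared one. PRIM1 had 0.30, -0.83, -1.11 and -0.95, and then -0.09, -0.10 and -0.95. MCM4 had -0.03, -1.32, -0.06 and -1.40, and then 0.22, 0.61 and 0.45. The ring subunit MCM4 was thus lower only with methionine and tryptophan among the 7 tests, while CDT1 had a negative value in all 7 and was called in 5.

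Other genes of replication were followed as lists chosen alongside the members. Of 25 firing factors and fork proteins outside the set, 15 were lower and 4 higher under methionine restriction and 20 lower and 2 higher under tryptophan restriction (medians -0.58 and -0.76). For this and the following lists, 25.4% of all genes were lower and 27.8% higher for methionine. The shares for tryptophan were 27.7% and 23.6%. The largest methionine falls were in CHTF18 (-1.57), ATAD5 (-1.52) and DSCC1 (-1.49), which load or unload PCNA. Under tryptophan restriction CLSPN, the checkpoint adaptor claspin, fell by 1.52 on the log2 scale and the fork protein gene TIPIN fell by 1.24, while POLD4, the smallest polymerase delta subunit, rose by 1.25.

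Of 23 S phase regulators, 16 were lower and 2 higher for methionine and 17 lower and 3 higher for tryptophan (medians -0.49 and -0.78). The cyclin E genes CCNE1 and CCNE2 (-1.74 and -1.70) and E2F1 (-1.59) led for methionine. CDKN1A, the CDK inhibitor p21, had the largest tryptophan change at -2.43 (48.7 ± 12.9 against 259 ± 22.2, SD, n = 5 each), followed by E2F2 (-1.77) and CDC25A (-1.66). Of 10 genes of replication-coupled chromatin assembly, 9 were lower and 1 higher for methionine and 8 lower for tryptophan, led by ASF1B (-1.46) and CHAF1B (-1.44). Of 15 mitotic genes, 13 were lower and 1 higher for methionine and 12 lower for tryptophan, with medians of -0.84 and -0.51.

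Counts of the same 4 lists follow for the other comparisons. Lower and higher counts were 9 and 3 (firing and fork), 2 and 5 (S phase), 1 and 3 (chromatin) and 9 and 2 (mitosis) for histidine. They were 4 and 2, 2 and 1, 1 and 1, and 6 and 0 for phenylalanine, where 6.09% of all genes were lower and 4.11% higher. For leucine they were 3 and 4, 1 and 2, 1 and 2, and 0 and 1 (4.33% of all genes lower and 3.41% higher). For valine they were 4 and 2, 3 and 1, 1 and 0, and 4 and 0 (7.36% lower and 5.13% higher). For isoleucine no member of any list was called, and 0% of all genes were. Several of these counts lie near the shares over all genes given above: for histidine, 3 of 25 higher and 2 of 23 lower stand beside 15.6% and 12.3% of all genes.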

How the data were processed

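The authors deposited, for each of the 7 amino acids, 1 table of normalised counts per gene and library, treated here as a signal, whose libraries they had scaled to each other. GRCh38 is the build, and DESeq2 1.44.0, kallisto 0.50.1 and FastQC 0.11.9 the tools, per the submitters' processing notes; no source used here states the annotation release, the strand setting or other settings. Total RNA went into strand-specific libraries, per the labels' protocols. Groups and library numbers came from the labels. The steps between low values put depths at 11.9 M to 36.1 M reads, but only 43.6% to 81.5% of low values were whole multiples within 0.1, so whole reads were not recovered and no count model was fitted.

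For each amino acid, limma 3.58.1 (R 4.3.3, data.table version 1.17.8; two-sided, intensity trend) was run on log2 values after adding 1, over genes whose mean was at least 10. Benjamini-Hochberg adjustment took in every gene tested for that amino acid, and calls lie below 0.05. The 6 pairs among histidine, methionine, phenylalanine and tryptophan were tested as interactions over 4 groups. The tests were checked on simulated data.

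The members and lists were chosen with earlier results of these data known. Named in a comparison were called members, at most 24 by size of change, 16 members that take in every role, and up to 3 called genes of a list. ORC3 and ORC5 under methionine restriction, the members named in the tests between responses, MCM5, MCM6, RFC1 and PRIM1 where they were not called, and the genes added when libraries were left out were chosen after their values were seen. Same-numbered libraries correlated between -0.19 and 0.19, no comparison had every pair above 0.1, and the numbers were not treated as pairs. Alternatives were pseudocounts of 0.25 and 5, no filter or a mean of 100, trimmed mean of M values factors, equal totals, no trend, the block and each library left out. Leaving out the libraries high in ribosomal protein mRNA was added after seeing the data. Positions and promoters are RefSeq GRCh38.p14, and exon overlaps are GENCODE 29. Amino acid composition was not computed.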

Additional observations from a re-analysis of the deposited data

Results flagged for a closer look

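In 224 groups of 4 or 5 libraries, 17 had a library far from the others of its group; chance alone gives about 1 in 20 such groups. Of the 17, 14 lay in the 4 libraries that also stood apart in ribosomal protein mRNA, with BCAA control 1 counted in each table that holds it. Phenylalanine restricted 2 was high in GMNN (851.2 normalised counts), GINS2 (779.1) and PCNA (4230). Phenylalanine control 1 was high in PCNA (4134) and RPA3 (1061), low in RFC3 (597.3) and listed at 0 for POLA2. BCAA control 1 was high in GMNN (786.2 in the isoleucine table, 754.9 in the leucine table and 816.7 in the valine table) and in RPA3 (806.4, 798.9 and 847.8 in the same order). Valine restricted 2 was high in CDC45 (925.9). The remaining 3 were PCNA in histidine restricted 2 (4873, low), POLD1 in methionine restricted 1 (1082, low) and CDT1 in phenylalanine control 4 (3660, high).

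The responses of the replication genes differed between amino acids by a direct test, with differences as log2 fold change of the first minus the second. Histidine against methionine differed for 35 of 41 genes (34.4% of all genes), led by CDC45 (2.20), CDT1 (1.63) and CDC6 (1.63). Histidine against phenylalanine differed for 11 (9.66% of all genes), led by PRIM1 (1.41), CDC45 (0.78) and CDT1 (0.66). Histidine against tryptophan differed for 38 (43.3%), led by CDC6 (1.92), MCM10 (1.91) and ORC6 (1.74). Methionine against phenylalanine differed for 30 (29.4%), led by GINS2 (-1.67), PCNA (-1.65) and MCM2 (-1.58). Methionine against tryptophan differed for 19 of 41, a smaller share than the 53.6% over all genes, led by POLA2 (1.32), ORC3 (1.13) and ORC5 (1.05). Phenylalanine against tryptophan differed for 31 (32.6%), led by POLA1 (1.76), PCNA (1.62) and FEN1 (1.55).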

How the results depend on the processing

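Of 537 recomputed counts and medians, 499 stayed close to their value, and of 2844 recomputed values of single genes none reversed, 118 lost a call and 36 gained one. With equal library totals the medians moved to -0.81 (methionine), -0.012 (phenylalanine), -0.86 (tryptophan), 0.22 (leucine) and 0.18 (valine). The genes called higher moved to 1 for phenylalanine (9.03% of all genes), 2 for tryptophan (41.2%) and 10 for valine (10.5%). Trimmed mean of M values factors moved the histidine median to 0.015. Genes called higher were 3 without a filter (valine, 2.44% of all genes) and 3 without the trend (leucine, 1.63%). A minimum mean of 100 gave 1 lower gene (leucine, 6.66%). With the replicate block, where numbers were not shown to pair libraries, phenylalanine gave 5 lower genes (3.28% of all genes) and leucine 2 higher (1.94%). For isoleucine, leucine and valine the block also left out restricted library 2, as no BCAA control carries that number. In the valine block fit CDC6, LIG1 and MCM2 gained a lower call and GINS2 a higher one. Over all genes, 9.76% were lower and 8.56% higher in that fit. The POLA2 call under methionine restriction was lost with the block (adjusted p = 0.0557). Leaving out single libraries gave 7 to 14 lower genes for phenylalanine (14 without restricted 2), 0 to 1 lower and 3 to 12 higher for leucine, and 0 to 8 higher for valine. Over all genes those fits gave 4.23% to 8.69% lower for phenylalanine and 2.37% to 8.38% higher for valine. For leucine they gave 2.02% to 4.92% lower and 0.982% to 5.2% higher. The medians were -1.17 to -1.07 (tryptophan), -0.0023 to 0.12 (isoleucine), 0.13 to 0.20 (leucine) and -0.019 to 0.11 (valine). Without the libraries high in ribosomal protein mRNA, 16 genes were lower for phenylalanine (14.2% of all genes), and 10 lower (11.5%) and 14 higher (13.5%) for valine. The cause was not tested. Depth is an estimate here, and no interval was drawn from it.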
